A study of Mus musculus with 105 samples.

Results

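The libraries described here are the 4 made from healthy mouse brain, set against the 44 libraries of 11 other healthy tissues (colon, heart, kidney, liver, lymph node, written LN in the labels, lung, ovary, skin, spleen, stomach and thymus, 4 each). They were taken by the tissue in their labels, without using any measured value, and are 4 of the 105 libraries in the series. The series as a whole asks which splice junctions between exons and transposable elements in tumours are under epigenetic control, and its healthy tissues are the normal side of that question. Brain, like each of the other tissues, came from WT female C57BL/6 mice whose age is not given, carrying no further allele or treatment in the labels. Pieces of tissue were kept in RNAlater, homogenised, and their poly(A) RNA was sequenced from a stranded mRNA kit. The labels name no brain region and do not say whether the 4 brain libraries come from separate mice, so p-values measure the spread between these samples, which may be technical.

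The brain holds neurons, which signal through synapses, and glia, which insulate axons, clear transmitters and feed and guard neurons. The cerebellum packs very many small granule neurons, whose output reaches Purkinje cells, while the forebrain holds the cortex, hippocampus and striatum. Each of these regions has its own neurons and marker genes. Neuronal genes are held down elsewhere in the body by the repressor REST, and neurons swap the splicing regulator Ptbp1 for its relative Ptbp2.

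Brain libraries held 76637083 to 97467235 gene counts and all 48 tissue libraries 53591239 to 254103370. Levels are given as CPM, counts per 1000000 gene counts of the library, in which 3 counts over the 4 brain libraries are 0.00858 CPM. Such counting limits cover counting error only. CPM do not hold the TMM scaling factors of the fit, which were 1.12 to 1.15 in brain, 0.458 to 0.499 in liver and 0.557 to 0.763 in heart. On the scale of the fit, levels in liver and heart thus lie higher against brain than CPM show. Brain replicates 1 to 3 were sequenced in the run coded D812 and replicate 4 in D804, and the fit held a term for run. Brain replicates 2 and 3 stood apart from 1 and 4 in their forebrain markers, as the next paragraphs give, and each count over a gene group below was repeated without each brain library.

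The 2 marker genes given for brain were read first. Gabra6, a GABA-A receptor subunit of cerebellar granule cells (chr11:42306437-42321072, mm10), had 488, 374, 332.4 and 604 CPM in brain replicates 1, 2, 3 and 4, against 0 to 0.128 CPM (median 0) in the 44 other libraries. Zic1, a transcription factor of the cerebellum (chr9:91358058-91365810), had 758, 639.7, 528 and 979 CPM in brain, against 0 to 1.21 CPM (median 0) elsewhere. All 4 brain libraries thus stood far above all 44 others, with skin the next tissue for both genes (Zic1 at 0.751 ± 0.321 CPM, mean ± SD, n = 4, as for the values with an error below). The labelled tissue therefore carried its defining genes in all 4 libraries. The same holds for neurons at large: Snap25, a part of the vesicle fusion machine, had 2351, 2366, 2448 and 2358 CPM in brain, 140.1-fold the level of the next tissue, colon (16.99 ± 1.23 CPM).

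Gabra6 and Zic1 mark the cerebellum, and other genes of its neurons were high in every brain library too. All 10 granule cell genes and all 9 Purkinje cell genes on the lists were higher in brain than in the mean of the 11 tissues (edgeR quasi-likelihood test, Benjamini-Hochberg adjusted over all tested genes, with calls made under 0.05), where 36.2% of all tested genes were called higher and 35% lower. That mean is taken over the log2 levels of the 11 tissues, so a gene confined to 1 of them can be called higher in brain at a low level. Each of these cerebellar genes was also among the genes highest in brain, here meaning called, with a log2 fold of at least 2, and with the highest mean CPM of the 12 tissues, as 12.2% of tested genes were. Cbln3, a granule cell partner of Cbln1, had 1102, 922, 759 and 1462 CPM in brain, against 4.63 ± 1.27 CPM in colon. Neurod1, a transcription factor of granule neurons, had 305.8, 212, 196 and 378 CPM in brain and 5.15 ± 1.502 CPM in colon. In Purkinje cells, Pcp2, a regulator of G protein signalling, had 221, 172, 152 and 393 CPM in brain and 0.237 ± 0.101 CPM in skin, and Rgs8, which speeds the end of G protein signals, had 937, 774, 692 and 1313 CPM, 771-fold above colon. Calb1, a calcium buffer, was nearer to another tissue, with 640.0 ± 159 CPM in brain and 339.9 ± 37.0 CPM in kidney.

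The order of the 4 brain libraries was the same for almost every gene of these lists. Replicate 4 was the highest for 9 of 10 granule genes and replicate 3 the lowest for all 10, and the summed level of the granule list was 4493, 3717, 3052 and 6005 CPM in replicates 1 to 4. All 9 Purkinje genes were also highest in replicate 4. The median ratio of highest to lowest brain library was 1.96 for granule genes and 1.85 for Purkinje genes.

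Forebrain genes behaved otherwise. Tbr1, a transcription factor of deep cortical neurons, had 1.40, 29.7, 61.4 and 1.62 CPM in brain replicates 1 to 4, against 0.204 CPM in thymus, and Camk2a, a synaptic kinase of forebrain excitatory neurons, 201, 1071, 1996 and 113 CPM. In the striatum, the dopamine receptor gene Drd1 had 0.995, 30.2, 20.9 and 0.497 CPM against 0.650 CPM in ovary. Replicates 1 and 4 were thus low and 2 and 3 high for each of these. Replicates 2 and 3 exceeded both replicates 1 and 4 for 8 of 10 cortex genes and 10 of 11 striatum genes. The summed cortex list came to 388, 1392, 2430.3 and 391 CPM and the summed striatum list to 352, 1081, 874 and 407 CPM. All 10 cortex and all 11 striatum genes were nonetheless called higher in brain by edgeR, 7 and 9 of them highest in brain. With a brain library left out the cortex count was 9 or 10, 1 call being lost without replicate 3. The striatum count was 10 or 11, since the adenosine receptor gene Adora2a lost its call without replicate 2 (adjusted p = 0.0668), and with the 44 other libraries fitted as 1 group the counts were 7 of 10 and 8 of 11.

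**Figure D1:**
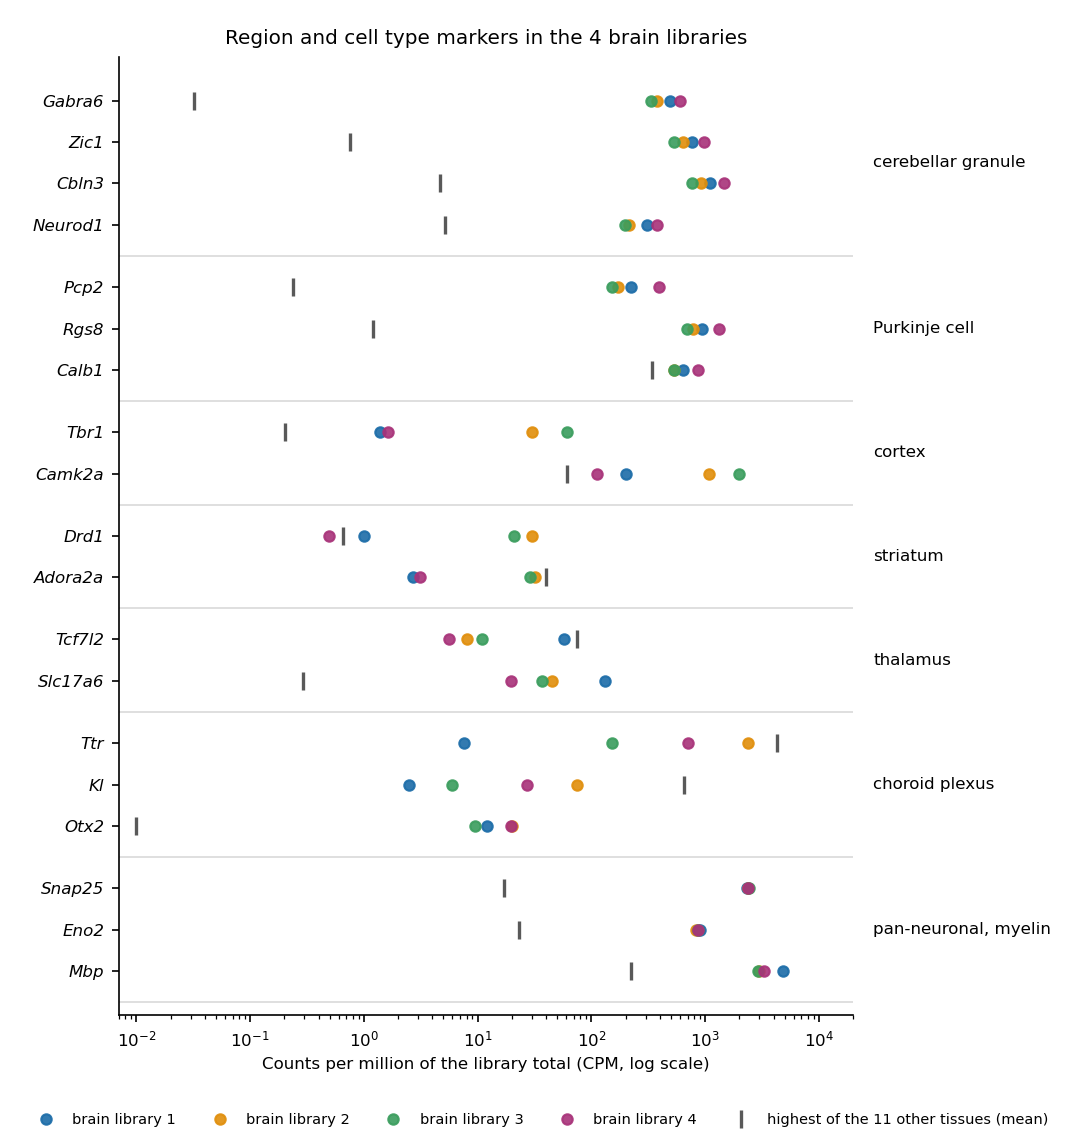
Levels of region marker genes (CPM, log scale) in the 4 brain libraries, each library a point, with a tick at the highest mean among the 11 other tissues. The 4 points of Gabra6, Zic1 and Snap25 lie close together and far right of the tick, while Tbr1 and Drd1 were high in replicates 2 and 3 and low in 1 and 4.

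Genes of the linings and of other regions were also unequal among the 4 brain libraries. Ttr, the thyroid hormone carrier made by the choroid plexus, had 7.64, 2402, 150.3 and 706 CPM in brain, and all 10 choroid plexus genes were highest in replicate 2. Kl, which encodes the hormone co-receptor klotho, had 2.49, 75.2, 5.99 and 27.3 CPM. Of 10 such genes 7 were called higher in brain than in the mean of the tissues, although liver held 4242 CPM of Ttr and kidney 653 CPM of Kl, and the water channel gene Aqp1 was lower (0.369, 11.7, 0.757 and 6.61 CPM in brain, against 849 ± 157 CPM in kidney). Otx2 was the choroid plexus gene highest in brain, at 12.05, 19.9, 9.41 and 19.7 CPM with 0.00744 CPM in thymus. The count was 7 or 8 with a brain library left out, and 1 with the 44 libraries as 1 group. All 5 genes of the ciliated ependyma were called higher too, each highest in replicate 2 and none of them highest in brain (0 called with the 44 libraries as 1 group).

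Vesicular glutamate transporter Slc17a6, of thalamus and brainstem neurons, had 133, 45.3, 36.8 and 19.6 CPM, highest in replicate 1, as was Tcf7l2, a factor of the thalamus (56.9, 8.01, 11.01 and 5.64 CPM), which was not called (edgeR, adjusted p = 0.227) and was called lower without replicate 1 (log2 fold -1.65, adjusted p = 3.11e-12). Of 6 thalamus genes 3 were called higher and 2 lower (1 and 1 with the 44 libraries as 1 group). All 6 hippocampus genes were called higher, 2 of them highest in brain (2 called with the 44 libraries as 1 group), with Fibcd1, of its output field, at 7.62, 19.04, 6.28 and 0.882 CPM in brain against 1.31 CPM in thymus. Olfactory bulb genes gave 2 higher calls and 1 lower of 4 (0 and 1 with the 44 libraries as 1 group), hypothalamus genes 5 of 7 (9 called with no filter, when more of them were tested) and pituitary genes 3 of 5, the last with a summed level of 1.82, 3.54, 1.37 and 2.30 CPM in brain replicates 1 to 4.

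Across the 26242 tested genes, 9509 (36.2%) were called higher in brain and 9177 (35%) lower than in the mean of the 11 tissues, and 3201 (12.2%) were highest in brain. A stricter reading, that brain exceeded each of the 11 tissues in turn, was met by 2790 genes (10.6%), and 1914 (7.29%) were lower than in each. Against single tissues, calls in either direction ran from 17489 genes against heart (66.6%) to 20000 against thymus (76.2%). In 3037 genes (11.6%) all 4 brain libraries lay above all 44 others, and in 1024 (3.90%) below them. In tissue pieces, fewer cells of a type and less RNA per cell cannot be told apart, here and in each result below.

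Genes highest in brain made up 30.6% to 31.8% of the counts of the brain libraries, against 0.724% to 3.80% in the 44 others. Most were not private to brain. The median ratio of brain to the second tissue was 3.97-fold, 787 genes (24.6%) stood less than 2-fold above it and 168 (5.25%) at least 100-fold. The second tissue was ovary for 850 of them (26.6%), then skin (430), colon (358) and lung (350), and liver for 47. These ratios and second tissues are from CPM, without the scaling of the fit. That scaling lowers ovary and raises liver and heart against brain. In 19 genes the other 44 libraries held no count at all.

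**Figure D2:**
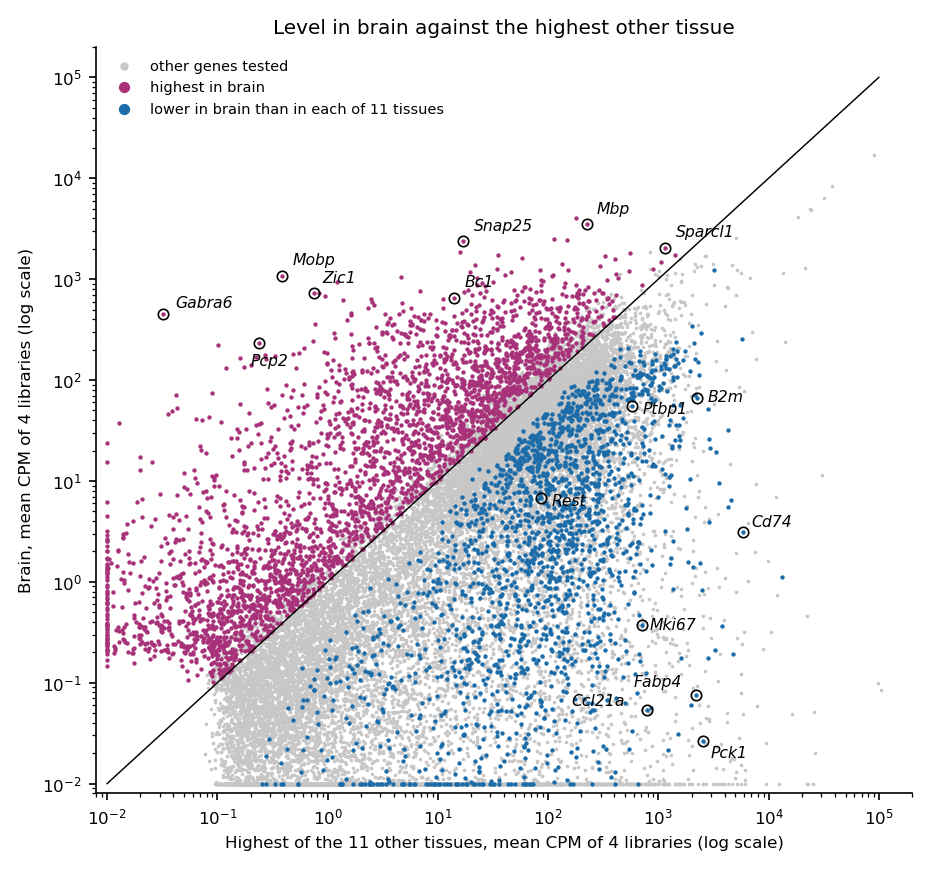
Mean level in brain (vertical axis) against the highest mean of the 11 other tissues (horizontal axis), both in CPM on log scales, for each tested gene, with genes highest in brain and genes lower than in each tissue marked. Gabra6, Zic1 and Snap25 lie far above the line of equal levels, and the MHC gene Cd74 and the proliferation gene Mki67 far below it.

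The largest folds among genes with at least 10 CPM in brain were, besides Gabra6, Zic1, Pcp2, Neurod1 and the myelin gene Mobp, those of Mir124a-1hg, Ppp1r17, Slc32a1, Zic2, Barhl2, Gpr26 and Cacng2. Mir124a-1hg, the host transcript of a neuronal microRNA, had 713, 652, 636 and 896 CPM in brain against 0.832 ± 0.196 CPM in colon. Cacng2 encodes stargazin, which carries AMPA receptors to the synapse, and had 174, 143, 149 and 194 CPM against 0.162 CPM in stomach. Slc32a1, the transporter that loads GABA and glycine into vesicles, had 165, 169, 149.9 and 186 CPM against 0.222 CPM in LN. Those 3 varied little among the brain libraries, unlike the orphan receptor gene Gpr26, at 35.7, 128, 111 and 10.8 CPM.

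Per kilobase of exon, the most abundant of the genes highest in brain was Bc1, a short neuronal RNA derived from a repeat, at 3916 CPM per kb. It was followed by Sparcl1 (699 CPM per kb), which astrocytes secrete, the brain creatine kinase Ckb (626), the tubulin gene Tubb4a (526), Aldoc (502), the peptide-processing enzyme gene Cpe (479.9), Ptgds (474) and Calm3 (466). Bc1 had 621, 756, 974 and 280.5 CPM in the 4 brain libraries, against 13.96 ± 4.83 CPM in stomach. Its repeat-like sequence makes its count uncertain, since how reads with several matches were counted is not stated in these sources.

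GABA acts through chloride channels built from several subunits. Of 18 tested subunit genes, 16 were higher in brain, 14 of them highest in brain, and the median log2 fold was 9.13, against -0.03 over all tested genes. These medians, and those of the lists below, are taken from tissue mean CPM, without the scaling and run term of the fit. They put each tissue mean at no less than 3 counts over its 4 libraries. Log2 folds of single genes are those of the fit. Gabrd, of receptors outside synapses, had 166, 159, 158 and 250.3 CPM in brain against 0.983 ± 0.256 CPM in thymus, and was high in all 4 libraries. Gabra5, abundant in hippocampus, had 13.97, 21.1, 24.5 and 1.42 CPM and was lowest in replicate 4. Gabre fell in brain, with 1.59, 1.61, 1.34 and 0.236 CPM against 12.5 ± 1.21 CPM in lung (edgeR, log2 fold -1.60, SE 0.34, adjusted p = 6.69e-05), and Gabrp had at most 0.0205 CPM in a brain library, against 79.8 CPM in lung. With the 44 libraries as 1 group 13 of 18 were called higher.

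Of 26 glutamate receptor genes 25 were called higher in brain, each of them also highest in brain (median log2 fold 8.80). The exception, Grm6, a receptor known from retinal bipolar cells, had no count in any brain library. Among AMPA receptors, which carry fast excitation, Gria2 had 360.2, 436, 452 and 327.4 CPM in brain against 1.49 ± 0.226 CPM in colon. Grin1, the obligate NMDA receptor subunit, had 551, 586, 646 and 618 CPM against 2.51 CPM in colon. The NMDA subunits that join it differed between libraries. Grin2c, the subunit of mature cerebellar granule cells, had 521, 458, 372 and 718 CPM, highest in replicate 4, and Grin2b, of the forebrain, had 37.9, 169, 209 and 22.3 CPM, highest in replicate 3. The metabotropic receptor gene Grm4, of granule cell terminals, had 568, 459.6, 408 and 889.8 CPM against 4.70 CPM in ovary, and Grm5, of forebrain neurons, 36.0, 85.0, 81.2 and 8.29 CPM.

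**Figure D3:**
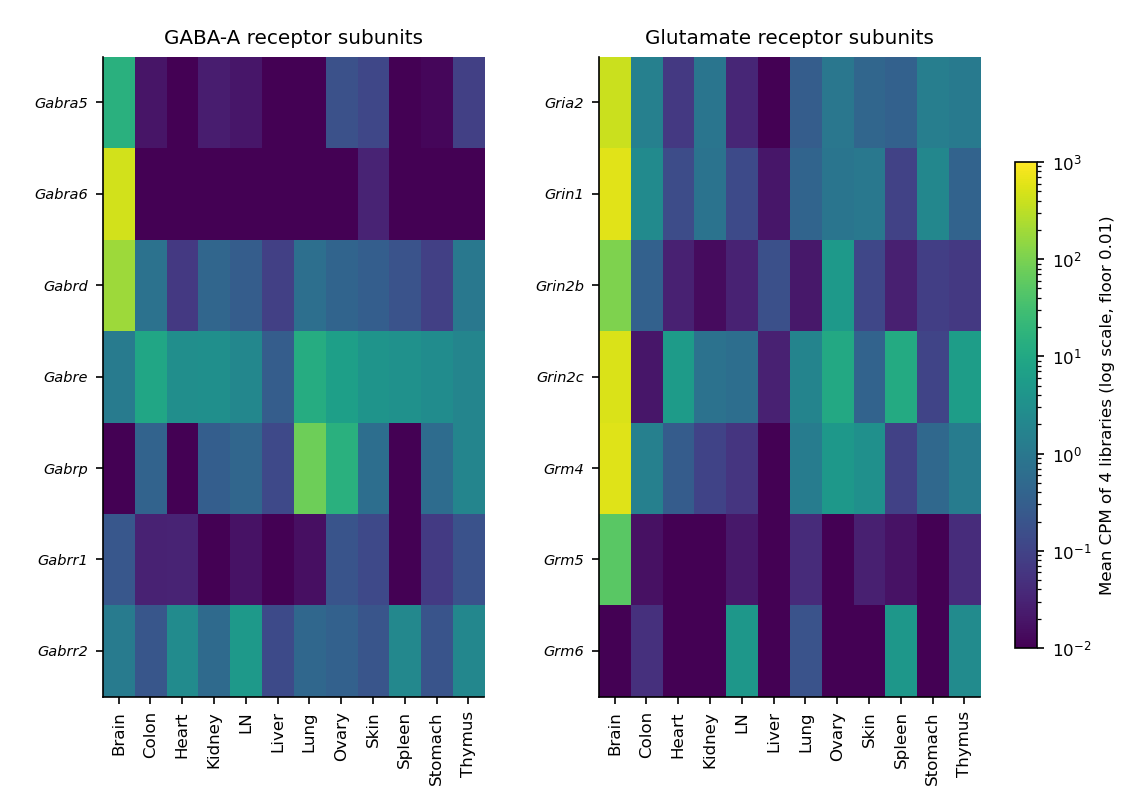
Mean level of the GABA-A and glutamate receptor genes named in the text (rows, colour in CPM on a log scale) in brain, at the left, and in the 11 other tissues. Most rows are brightest in brain, and Gabre, Gabrp, Gabrr2 and Grm6 are the rows brightest elsewhere.

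Enzymes and carriers that supply transmitters gave 19 of 24 genes higher in brain and 2 lower. Gad1, which makes GABA, had 510.1, 488, 499 and 552 CPM in brain against 5.70 ± 0.414 CPM in spleen. Slc17a7, the vesicular glutamate carrier of cortex and granule cells, had 476, 744, 911 and 677 CPM against 52.8 CPM in heart. Slc6a5, the glycine carrier of hindbrain inhibitory neurons, had 42.1, 42.05, 19.4 and 38.3 CPM and was lowest in replicate 3. Glul, by which astrocytes turn glutamate into glutamine, averaged 1136 ± 171 CPM in brain and 933 ± 310.5 CPM in liver, a comparison that the scaling of the fit shifts towards liver. Slc6a4, the serotonin carrier, was among those that fell (edgeR, adjusted p = 2.06e-05), with 0.410, 1.497, 0.157 and 0.0746 CPM in brain against 37.0 ± 3.50 CPM in skin. With the 44 libraries as 1 group 11 of 24 were called higher.

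Genes of aminergic and cholinergic neurons were at few CPM in brain. Th, the first enzyme of dopamine synthesis, had 11.3, 9.36, 9.12 and 13.1 CPM in brain against 15.6 ± 31.2 CPM in kidney, where 1 kidney library held nearly all of it. The dopamine carrier Slc6a3 had 2.93, 0.137, 0.144 and 0.112 CPM, nearly all of it in replicate 1, and Tph2, which makes serotonin in neurons, 1.11, 2.88, 0.887 and 0.746 CPM. Chat, which makes acetylcholine, had 1.81, 3.64, 1.58 and 0.0124 CPM. Of 14 genes on this list 10 were called higher in brain (9 or 10 with a brain library left out, 3 with the 44 libraries as 1 group).

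Genes of vesicle release, of the postsynaptic side and of synaptic adhesion were called higher throughout. All 22 tested release genes were called higher in brain and 21 were highest in brain (median log2 fold 7.01). Syp, a vesicle membrane protein gene, had 994, 1028, 1135 and 951 CPM in brain against 22.7 ± 4.54 CPM in stomach (log2 fold 7.30, SE 0.11, edgeR adjusted p = 3.79e-38). Cplx2, a clamp of fusion, had 913, 1224, 1256 and 1007 CPM. The exception was Vamp1, of motor and fast synapses, which averaged 337.7 ± 137 CPM in brain and 411 CPM in thymus. Stx1a, a membrane partner of the fusion machine, differed among the brain libraries, with 12.8, 63.7, 145 and 6.15 CPM. Replicate 3 was the highest for 12 of 22 release genes.

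On the list of postsynaptic and synaptic adhesion genes all 22 were called higher and 21 were highest in brain (median log2 fold 6.91). Camk2b had 899, 919.9, 923 and 979 CPM in brain against 31.8 ± 3.05 CPM in skin, nearly level across libraries where its relative Camk2a was not. Dlg4, the scaffold PSD-95, had 392, 485, 620.3 and 387 CPM against 83.2 CPM in thymus, and Nrxn3, a presynaptic adhesion gene, 259, 295, 282 and 328.9 CPM against 1.14 CPM in LN. Cbln1, which granule cell terminals release, had 706, 577, 436 and 1015 CPM against 0.941 CPM in spleen. Shank3 had the closest second tissue, with 369 ± 50.9 CPM in brain and 316.1 ± 7.62 CPM in lung. Homer1, a scaffold of metabotropic glutamate receptors, was the one not counted as highest in brain, its log2 fold being under 2 (57.98 ± 31.6 CPM in brain, 42.9 CPM in heart). The scaling of the fit shifts the comparison of these CPM towards heart.

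All 24 voltage-gated channel genes were called higher in brain and 23 were highest in brain (median log2 fold 6.92). Kcnc1, a potassium channel gene of fast-firing cells, had 704, 644, 529.7 and 915 CPM in brain against 20.6 ± 2.197 CPM in skin. Cacna1a, the P/Q-type calcium channel of Purkinje cells and terminals, had 585, 529.8, 475 and 697 CPM against 20.0 CPM in ovary (log2 fold 6.19, SE 0.08, edgeR adjusted p = 1.11e-39). Scn3a alone had a tissue above brain, with 10.7, 23.2, 22.6 and 2.11 CPM in brain against 42.2 CPM in lung. Kcnq5, whose channels damp repetitive firing, had 8.08, 32.8, 41.5 and 2.42 CPM, with replicates 2 and 3 above 1 and 4.

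Peptide genes were called higher in brain in 23 of 24 tested cases (13 with the 44 libraries as 1 group), and 14 were highest in brain. Chgb, a granule protein of secretory cells, had 573, 591, 596 and 692 CPM in brain against 376 ± 85.96 CPM in colon, and Penk, the enkephalin precursor, 86.7, 236, 213 and 107 CPM against 125 CPM in skin. Sst, which encodes somatostatin, had 31.0, 74.2, 82.0 and 4.26 CPM in brain, and stomach held more, 260.4 ± 85.0 CPM. Vip had 2.07, 8.74, 17.1 and 0.174 CPM in brain against 42.1 CPM in colon. Replicates 2 and 3 lay above both 1 and 4 for 16 of 26 peptide genes, and replicate 4 was the lowest for 17. Peptides of the hypothalamus had few counts. Avp had 0.349, 5.48, 4.998 and 0.969 CPM, Oxt 0.482, 1.71, 0.391 and 0.236 CPM, and Hcrt at most 0.209 CPM.

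Axon and dendrite cytoskeleton genes were all called higher (22 of 22, 19 highest in brain). Kif5a, a motor of axonal transport, had 1611, 1832, 2878 and 1033 CPM in brain against 15.8 ± 1.66 CPM in skin, and Map1a 1289.7, 1263, 1379.8 and 1058 CPM against 34.3 CPM in skin (log2 fold 6.85, SE 0.17, edgeR adjusted p = 4.1e-31). The neurofilament gene Nefl had 467, 391, 304.8 and 243 CPM against 5.57 CPM in colon. Tuba4a had nearly equal CPM in heart, with 388 ± 3.41 CPM in brain and 379.6 ± 85.3 CPM in heart, a comparison that the scaling of the fit shifts towards heart. Stmn1, which destabilises microtubules in dividing and growing cells, was higher in thymus, with 151 ± 35.1 CPM in brain and 427 ± 142 CPM in thymus.

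Metabolic enzyme families differed by member. Of 25 genes 16 were called higher and 6 lower (10 higher against a 2-fold minimum and 7 with the 44 libraries as 1 group). Aldoc, the aldolase of brain, had 1738, 1351, 1539 and 1924 CPM in brain against 57.8 ± 26.7 CPM in ovary. Among enolases, Eno2 had 902, 836, 858 and 870.1 CPM against 22.9 CPM in LN, and the muscle form Eno3 15.4, 15.1, 14.1 and 18.1 CPM. Ckb had 1875, 1653, 1556 and 2169.6 CPM against 555 CPM in stomach, and its muscle relative Ckm at most 0.148 CPM. The mitochondrial fatty acid importer Cpt1a fell (40.2, 35.2, 32.8 and 35.3 CPM in brain, 426 ± 49.7 CPM in kidney, edgeR log2 fold -2.54, SE 0.16, adjusted p = 4.28e-17), as did Pygl, Hk2, Ldha, Eno3 and Ckm, while Cpt1c, the neuronal relative of Cpt1a, was highest in brain at 105, 116, 123 and 123 CPM.

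All 13 oligodendrocyte and myelin genes were called higher in brain (10 highest in brain, median log2 fold 7.89), and all 13 were highest in replicate 1. Mbp, the main inner myelin protein, had 4833, 3001, 2901 and 3312 CPM in brain against 224 ± 18.1 CPM in skin, and Mobp 1649, 877, 947 and 840.4 CPM against 0.389 CPM in ovary. The summed list came to 11028, 6809, 6545 and 7206 CPM, with replicate 1 above the others. Mal, Myrf and Fa2h, which are also known from epithelia, were called higher but had another tissue above brain. Fa2h had 68.6 ± 15.8 CPM in brain and 954 ± 77.8 CPM in skin, and its fold was below 0 with the 44 libraries as 1 group.

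Astrocyte genes were called higher in 11 of 12 cases (8 highest in brain). Slc1a2, the glutamate uptake carrier of forebrain astrocytes, had 1025, 1389, 1846 and 673 CPM in brain against 151 ± 35.2 CPM in liver, and Slc1a3, the carrier prominent in cerebellar astroglia, 1009, 807, 884 and 1130.1 CPM against 89.5 CPM in ovary. Slc1a2 was thus lowest in replicate 4, where Slc1a3 was highest. Gfap had 171, 187, 149 and 182 CPM against 6.997 CPM in colon. Aldh1l1, a folate enzyme often used as an astrocyte marker, was not called (edgeR, adjusted p = 0.534), with 74.6 ± 8.96 CPM in brain and 2212 ± 403 CPM in liver.

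Oligodendrocyte precursor genes were higher in 8 of 10 cases. Olig1 had 142, 98.5, 98.1 and 85.99 CPM in brain against 1.56 ± 0.658 CPM in liver, and Gpr17 30.2, 35.2, 47.9 and 18.8 CPM against 2.12 CPM in colon. Pdgfra, shared with fibroblasts, fell (31.1, 41.4, 39.9 and 18.5 CPM in brain, 433 ± 31.4 CPM in lung, edgeR log2 fold -1.05, SE 0.16, adjusted p = 2.73e-07), a call not made against a 2-fold minimum or with the 44 libraries as 1 group.

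Microglial genes were split, 6 higher and 6 lower of 13, and none was highest in brain. P2ry12, a receptor of resting microglia, had 12.8, 11.8, 11.8 and 6.91 CPM in brain against 17.2 ± 2.10 CPM in LN (log2 fold 1.61, SE 0.18, edgeR adjusted p = 2.28e-10), and Csf1r, the receptor macrophages need to survive, fell to 50.4, 42.4, 42.5 and 34.9 CPM against 621 ± 108 CPM in spleen (log2 fold -1.48, SE 0.18, adjusted p = 2.86e-09). C1qa was the lowest of the 12 tissues in brain at 18.9 ± 2.35 CPM. Against a 2-fold minimum 3 of these genes were called higher, and 0 with the 44 libraries as 1 group. Replicate 4 was the lowest for 12 of 13.

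Blood vessel genes of the barrier were called higher in 10 of 11 cases (6 against a 2-fold minimum, 2 with the 44 libraries as 1 group, median log2 fold 1.35). Slco1c1, the thyroxine carrier of brain vessels, was the one highest in brain, with 43.4, 55.3, 45.7 and 42.2 CPM against 1.26 ± 0.207 CPM in LN (log2 fold 7.97, SE 0.18, edgeR adjusted p = 3.6e-32). Slc2a1, the glucose carrier of the barrier, had 115, 102, 102 and 107 CPM against 136 CPM in colon. Pecam1, common to all endothelium, was lower than in each of the 11 tissues, with 28.4, 28.1, 24.1 and 24.03 CPM in brain (log2 fold -2.57, SE 0.13, adjusted p = 2.51e-20). Fibroblast genes of the meninges were mostly lower (5 of 7, with 2 higher), Dcn at 26.5, 32.4, 10.4 and 16.2 CPM in brain against 2937 ± 248 CPM in skin, and all 7 were highest in brain replicate 2.

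Rest, which encodes the repressor of neuronal genes outside the nervous system, was lower in brain than in each of the 11 tissues. It had 7.603, 7.33, 6.37 and 5.96 CPM in brain replicates 1 to 4, against 13.1 to 104 CPM (median 37.6) in the 44 others, so that the groups did not overlap (edgeR, log2 fold -2.66, SE 0.14, adjusted p = 1.14e-19). Thymus was the highest at 86.3 CPM and heart the lowest of the others at 17.1 CPM. Of the 10 genes of the repressor and its cofactors 7 fell, among them the phosphatase Ctdsp1, a REST partner, at 48.96, 44.1, 39.2 and 51.2 CPM in brain against 230.3 ± 11.99 CPM in lung (log2 fold -2.16, SE 0.08, adjusted p = 9.33e-26), and Hdac1 at 38.1, 36.2, 35.0 and 42.5 CPM. The corepressor gene Rcor2 rose (7.72 ± 2.41 CPM in brain, log2 fold 1.11, SE 0.14, adjusted p = 3.04e-09), though thymus held 29.4 CPM, and its call did not stand against a 2-fold minimum or with the 44 libraries as 1 group. With library totals alone as scaling 3 of the 10 were called higher, and against a 2-fold minimum 3 were called lower.

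REST binds a split DNA element, and promoters of genes highest in brain were searched for its letters. The motif was TTCAGCACC, 2 free bases, then GGACAGCGC, with up to 3 mismatches in the 18 set positions, on both strands, in the 250 bases before to 50 after each start site of RefSeq genes (build GRCm38.p6). It was found for 22 of 1875 genes highest in brain with a promoter (1.17%), against 10 of 14185 other tested genes (0.0705%). All tested genes with a promoter gave 32 of 16060 (0.199%). A match is a description of letters, not a bound site. Shown are 6 windows from synaptic and neuronal surface genes, 5′ to 3′ on the gene's strand, with the matched stretch in capitals; in Gria2 and Rph3a the capitals are the reverse complement of the motif. They lie at chr3:80802979-80803018 (minus strand) for Gria2, chrX:20921121-20921160 (minus) for Syn1, chr2:22622151-22622190 (plus) for Gad2, chr9:108825908-108825947 (plus) for Celsr3, chr5:121009604-121009643 (minus) for Rph3a and chr1:84696342-84696381 (minus) for Dner.
Gria2: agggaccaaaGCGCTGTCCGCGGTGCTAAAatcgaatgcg
Syn1: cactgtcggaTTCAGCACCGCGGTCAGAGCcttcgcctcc
Gad2: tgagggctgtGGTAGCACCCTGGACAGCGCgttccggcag
Celsr3: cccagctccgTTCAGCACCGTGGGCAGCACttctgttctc
Rph3a: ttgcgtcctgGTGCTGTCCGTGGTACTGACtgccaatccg
Dner: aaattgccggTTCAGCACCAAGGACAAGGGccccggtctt

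The Gria2 window differed from the motif at 1 position, those of Syn1 and Celsr3 at 2 and the others at 3. Windows were taken only from genes highest in brain, so the brain levels of these 6 genes are no test of the motif. Some other matches lay in genes low in brain or little above the next tissue. Lhx3, with 0 mismatches, had 0.544 CPM in brain, and Zim1 had 8.497 CPM against 7.49 CPM in kidney. Syn1, which tethers vesicles, had 393, 419, 531 and 327.8 CPM in brain against 6.56 CPM in colon, Gad2, a GABA-making enzyme, 184, 263, 208 and 143 CPM against 1.70 CPM in colon, and Rph3a, a vesicle protein gene, 552 CPM on average against 2.63 CPM in kidney. Celsr3, an adhesion receptor of axon guidance, averaged 257 CPM in brain and 3.94 CPM in colon, and Dner, a Notch ligand of Purkinje cells, 483 CPM and 4.85 CPM in colon.

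Splicing regulators of neurons were higher in brain in 17 of 18 cases, 15 of them highest in brain (median log2 fold 7.15). Rbfox3, whose protein is the neuronal marker NeuN, had 429, 414, 402 and 559 CPM in brain against 4.49 ± 1.20 CPM in lung, Elavl3 392, 347.996, 341.4 and 415 CPM against 3.54 CPM in colon, and Srrm4, which drives microexons, 97.8, 97.6, 103 and 131 CPM against 23.6 CPM in heart. Ptbp1 was the one that fell, with 55.6, 54.3, 49.2 and 64.4 CPM in brain, against 40.9 to 674 CPM (median 297) in the other 44 libraries (log2 fold -2.31, SE 0.09, edgeR adjusted p = 8.33e-25). Heart, at 51.6 CPM, was near brain only in CPM without the scaling of the fit. With that scaling Ptbp1 was called lower in brain than in each of the 11 tissues, heart included. Its relative Ptbp2 was higher than in each of the 11 tissues, with 110.0, 102, 102 and 96.3 CPM in brain against 57.2 ± 3.98 CPM in thymus (log2 fold 1.53, SE 0.09, adjusted p = 1.18e-18).

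**Figure D4:**
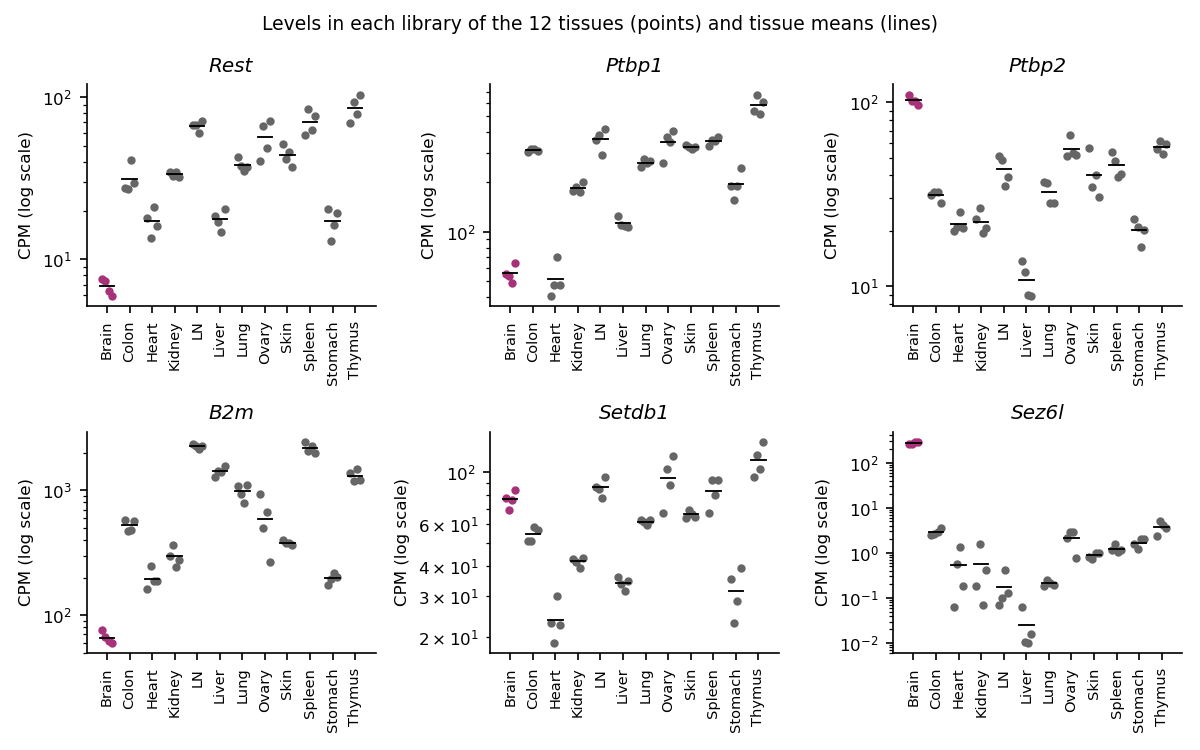
Levels (CPM, log scale) of Rest, Ptbp1, Ptbp2, B2m, Setdb1 and Sez6l in each of the 48 libraries, brain at the left and the 11 other tissues after it, each point a library. Lines are tissue means. Rest and B2m are lowest in brain, Ptbp2 and Sez6l highest, and Setdb1 lies between the thymus and heart levels.

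Genes highest in brain also hold microRNA hairpins, 114 of them in 90 genes by position on the same strand. These genes include microRNA genes matched to their own hairpin, such as Mir186 (2.02 CPM in brain) and Mir433 (0.876 CPM), which are not host transcripts. No such count over all tested genes is set beside it, so it is a description only. Counts of poly(A) RNA measure the host transcript, not the mature microRNA. Gm3764, the transcript that spans the first hairpin of miR-9, a microRNA of neural progenitors and neurons, had 166, 191, 169 and 199.8 CPM in brain against 0.483 ± 0.154 CPM in thymus, and Mir9-3hg, over the third, 34.2, 40.2, 43.03 and 37.8 CPM against 0.109 CPM in thymus. Aatk, whose intron holds miR-338, a microRNA of oligodendrocytes, had 558, 437, 426 and 539.9 CPM against 49.5 CPM in skin. Astn1, a neuronal adhesion gene that holds miR-488, averaged 148 CPM in brain and 8.83 CPM in LN. The mature forms are given from RefSeq (GRCm38.p6), 5′ to 3′, with the seed, bases 2 to 8, in capitals, to show the seed each carries. These miR-9 hosts, and C130071C03Rik over the second hairpin, give the same mature forms, placed here at the hairpin of Gm3764. The sequences lie at chr3:88215613-88215635 and chr3:88215652-88215673 (miR-9, plus strand), chr11:120014781-120014802 (miR-338, minus) and chr1:158505689-158505709 (miR-488, plus).
miR-9-5p: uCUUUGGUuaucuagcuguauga
miR-9-3p: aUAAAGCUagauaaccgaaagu
miR-338-3p: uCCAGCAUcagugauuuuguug
miR-488-3p: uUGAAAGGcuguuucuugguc

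A pair of imprinted noncoding RNAs of 1 locus, which hold microRNA hairpins, were also highest in brain. Meg3 had 3817, 4303, 4709.9 and 3186 CPM in brain against 179 ± 15.4 CPM in ovary (log2 fold 6.87, SE 0.31, edgeR adjusted p = 5.3e-22), and Rian 607, 639, 709 and 561 CPM against 69.7 CPM in ovary. Both were highest in replicate 3 and lowest in replicate 4.

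Antigen presentation genes were lower throughout. All 15 MHC presentation genes were lower in brain, 14 of them lower than in each of the 11 tissues, as 7.29% of tested genes were (median log2 fold -4.31). B2m, the light chain of every class I molecule, had 76.1, 66.2, 62.1 and 59.7 CPM in brain, against 161 to 2447 CPM (median 626) in the 44 other libraries (log2 fold -3.53, SE 0.19, edgeR adjusted p = 9.09e-20). The groups did not overlap. H2-K1, a class I heavy chain, had 32.3, 26.9, 19.9 and 25.4 CPM against 2877 ± 330.03 CPM in LN, and Cd74, the class II chaperone, 4.08, 4.57, 1.67 and 2.27 CPM against 5844 ± 868 CPM in spleen. H2 genes are close relatives, so that their reads can be split or lost in counting. Nlrc5, which switches on class I genes, had 1.74, 1.18, 0.992 and 1.06 CPM, and Ciita, which switches on class II genes, 0.328, 0.190, 0.0522 and 0.137 CPM.

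Interferon-stimulated genes fell in 18 of 19 cases (median log2 fold -2.80). Irf7, a factor that amplifies interferon, had 3.67, 3.07, 2.34 and 3.07 CPM in brain against 154 ± 41.5 CPM in colon (log2 fold -3.82, SE 0.24, edgeR adjusted p = 1.17e-17), and Ddx58, the RNA sensor RIG-I, 7.18, 6.24, 4.08 and 4.39 CPM against 141 CPM in LN. Stat2 rose (113 ± 23.1 CPM in brain, log2 fold 0.53, SE 0.10, adjusted p = 2.04e-05), with LN at 146 CPM, and its call stood neither against a 2-fold minimum nor with the 44 libraries as 1 group.

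Markers of immune cells were few in brain. All 9 were called lower, with a summed level of 10.2, 13.6, 23.3 and 3.96 CPM in brain replicates 1 to 4, against 11.3 to 18866 CPM in the 44 others, and Ighm, an antibody heavy chain, was at 8.42, 8.59, 17.5 and 2.97 CPM. Cd3e, of the T cell receptor complex, had 0.0616, 0.0738, 0.0652 and 0.0497 CPM in brain against 494 CPM in thymus. Cd4 was highest in replicates 2 and 3, at 0.380, 3.42, 5.05 and 0.224 CPM. Of 23 markers of other organs 9 were called lower and 4 higher (3 and 0 with the 44 libraries as 1 group), and those called higher, Slc12a1, Sftpc, Zp3 and Amh, were at 0.204, 0.320, 0.161 and 3.07 CPM on average in brain. Alb had at most 0.298 CPM in brain against 97562 CPM in liver, and Prss2 and Cpa1, of the pancreas, had no count. Among haemoglobin genes of red blood cells, Hbb-bs was at 98.2, 89.6, 41.9 and 78.8 CPM, highest in replicate 1 and lowest in replicate 3 as were all 5 of its list, of which 4 were called lower (1 to 4 with a brain library left out, and none against a 2-fold minimum or with the 44 libraries as 1 group).

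Cell cycle genes were all lower in brain (17 of 17, median log2 fold -3.19). Mki67 had 0.215, 0.422, 0.483 and 0.360 CPM in brain against 705 ± 174 CPM in thymus and Top2a, the topoisomerase of dividing cells, 0.421, 0.358, 0.705 and 0.385 CPM against 667 CPM in thymus. The replication clamp gene Pcna, also used in DNA repair, fell least, to 34.9, 31.6, 30.3 and 35.1 CPM (log2 fold -1.23, SE 0.14, edgeR adjusted p = 4.98e-10).

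Matrix genes parted by kind. Of 25, 17 fell and 8 rose. Among those that rose were genes of the nets around neurons. Bcan, a brain proteoglycan, had 325.4, 289.8, 282 and 290.5 CPM in brain against 31.2 ± 10.4 CPM in ovary, Hapln4, a link protein gene, 217, 149, 149 and 199.9 CPM against 9.26 CPM in liver, Tnr 98.0, 135, 133 and 94.7 CPM against 1.75 CPM in stomach and Ncan 47.2, 89.1, 125 and 26.9 CPM against 0.798 CPM in ovary. Sparc, Acan and Hapln1 were also called higher, but none of the 3 with the 44 libraries as 1 group, where the folds of Sparc and Acan were below 0 and 5 of 25 were called higher. Fibrillar collagens fell: Col3a1 had 11.5, 12.4, 5.49 and 8.33 CPM in brain against 3519 ± 1170.4 CPM in skin (log2 fold -5.63, SE 0.35, edgeR adjusted p = 7.34e-18) and Col1a1 21.9, 23.1, 13.5 and 18.4 CPM against 3355 CPM in skin.

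All 11 Hox genes of the list, which pattern the body from the hindbrain down, were lower in brain. Hoxb2 had 0.195, 0.443, 0.339 and 0.0373 CPM in brain against 20.9 ± 1.78 CPM in kidney, and Hoxb7 and Hoxb8 had no count in any brain library. Hoxb7 was at least 723-fold lower than the mean CPM of the other tissues, counting 3 reads over the 4 brain libraries. Where Hox genes were detected, 8 of 9 were higher in both replicates 2 and 3 than in 1 and 4.

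The 10 lowest folds among genes lower than in each tissue were those of Pck1, Fabp4, Ces1d, Orm1, Hoxd9, Cidec, H2-M2, Ccl21a, Ces1f and Car3. Pck1, which commits carbon to glucose synthesis, had 0.0205, 0.0843, 0 and 0 CPM in brain and 2519 ± 749 CPM in liver, and even lung, its lowest other tissue, held 2.65 CPM. Fabp4, a fatty acid carrier of fat cells and capillaries, had 0.0513, 0.0949, 0.0783 and 0.0746 CPM against 2218 ± 2172 CPM in ovary. Car3, abundant in fat and muscle, had 0.308, 0.432, 0.613 and 0.0994 CPM against 3799 CPM in ovary, and Ccl21a, a chemokine of lymphoid tissue, 0.0308, 0.0949, 0.0522 and 0.0373 CPM against 786 CPM in LN. Cidec, Ces1d, Ces1f and Orm1 were each near 0 CPM in every brain library. Hoxd9 and H2-M2 had no count in brain and were at least 1286-fold and 1203-fold lower than the mean CPM of the other tissues on the same footing. Ccl21a and the carboxylesterases Ces1d and Ces1f have close copies, which makes their counts uncertain.

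Few sterol genes were called. Of 20 sterol genes 6 were called lower and 1 higher, and 13 were not called (no lower call stood against a 2-fold minimum or with the 44 libraries as 1 group). The one higher was Cyp46a1, the neuronal enzyme that lets cholesterol leave the brain, with 70.9, 125, 165 and 53.9 CPM in brain against 5.90 ± 0.633 CPM in skin (log2 fold 5.796, SE 0.11, edgeR adjusted p = 2.12e-34). Apoe had 1303 ± 34.6 CPM in brain and 21370.5 ± 1990.1 CPM in liver.

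Immediate early genes, switched on within minutes of activity or handling, differed between brain libraries. Arc, which neurons transcribe on activity, had 35.6, 42.4, 156 and 32.7 CPM, replicate 3 alone being high, against 27.6 ± 5.60 CPM in LN. Egr1 had 58.1, 83.6, 199 and 39.4 CPM and Fos 27.3, 11.9, 40.8 and 44.4 CPM. Of 12 such genes 3 were called higher and 3 lower (5 higher with RLE factors and 6 with library totals alone). Fos was called neither against a 2-fold minimum nor with the 44 libraries as 1 group, nor without replicate 4 (edgeR, adjusted p = 0.0930), and Arc remained called without replicate 3, at a log2 fold of 3.42 in place of 4.25.

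**Figure D5:**
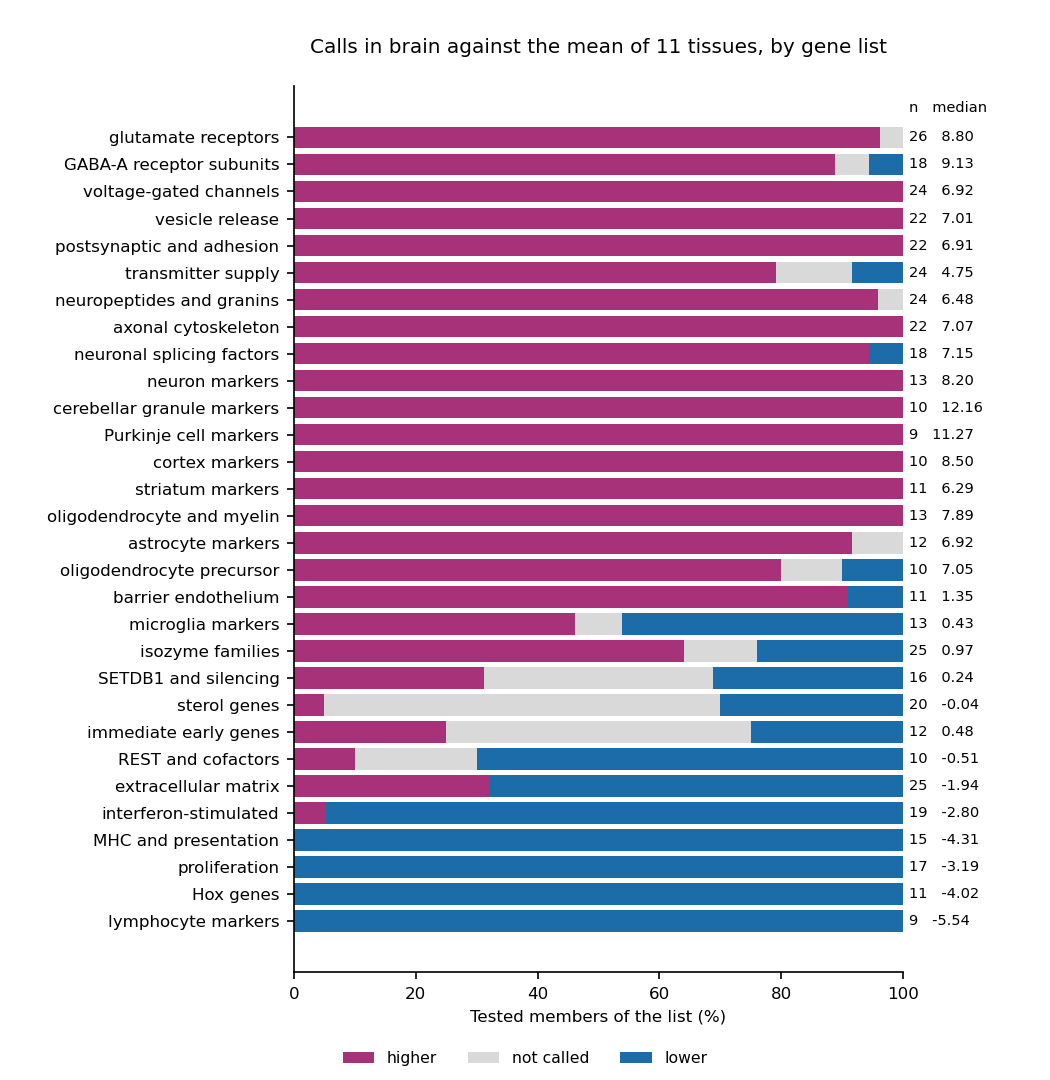
Share of tested members (percent, horizontal axis) called higher, not called and called lower in brain than in the mean of the 11 tissues, for each gene list, with the number tested and the median log2 fold beside each bar. The medians are from tissue mean CPM, without the scaling of the fit. The bars of the vesicle release, channel and myelin lists are wholly of higher calls, and those of the MHC, proliferation, lymphocyte and Hox lists wholly of lower calls.

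Setdb1, the histone H3 lysine 9 methyltransferase that the series knocks out in tumour lines, is not altered in these tissues by their labels. It had 77.6, 68.9, 75.8 and 83.8 CPM in brain, against 18.9 to 134 CPM (median 61.95) in the 44 other libraries. By CPM, brain ranked 5 of 12 tissues, the highest being thymus at 112 CPM and the lowest heart at 23.6 CPM. The scaling of the fit raises liver and heart against brain, so this rank holds for CPM only. Its call was slight (log2 fold 0.23, SE 0.08, edgeR adjusted p = 0.0102) and was lost without replicate 1 (adjusted p = 0.0592), against a 2-fold minimum and with the 44 libraries as 1 group. Of 16 genes of this silencing machinery 5 were called higher and 5 lower. Their median log2 fold was 0.24 from CPM, beside -0.03 over all tested genes, and 0.03 beside -0.17 in the fit. The counts were 2 and 2 with the 44 libraries as 1 group and 9 and 3 with library totals alone as scaling. Without brain replicate 2 or 3 the lower count was 3, and against a 2-fold minimum the counts were 0 higher and 1 lower. Uhrf1, which restores DNA methylation in dividing cells, was the furthest down (0.913, 0.875, 0.835 and 0.783 CPM in brain, 305.7 ± 64.04 CPM in thymus), and the DNA methyltransferase Dnmt3a rose, at 169 ± 13.3 CPM in brain with 182 ± 24.3 CPM in thymus (log2 fold 0.99, SE 0.10, adjusted p = 7.65e-12), though not past a 2-fold minimum.

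Of 20 genes named in earlier results on the tumour lines of the series as raised by Setdb1 loss, which was not tested here, 9 were called higher in brain, 6 lower and 4 were highest there. Over all tested genes, 36.2% were called higher, 35% lower and 12.2% were highest in brain. With the 44 libraries as 1 group 4 were called higher and 2 lower. Sez6l, a neuronal membrane gene, stood out with 251, 253.1, 288 and 279 CPM in brain, against 0.00810 to 5.09 CPM (median 1.01) in the 44 others (log2 fold 8.47, SE 0.25, edgeR adjusted p = 4.69e-28). Gabrr1, Pnma5 and Ndst4 were the other ones highest in brain, Gabrr1 at 0.195, 0.316, 0.157 and 0.236 CPM and Pnma5 at 0.595, 0.632, 0.887 and 0.323 CPM, both low, and Ndst4, a heparan sulfate enzyme gene, at 13.4, 15.6, 8.35 and 1.86 CPM. Gabrr1 was little above ovary (0.197 CPM) and was not called with the 44 libraries as 1 group. Cd34, of endothelium and blood progenitors, was lower (20.7, 22.02, 37.7 and 18.04 CPM in brain, 241 ± 18.8 CPM in lung), as was P2rx7 (10.3 ± 1.36 CPM in brain, 39.2 ± 2.27 CPM in lung).

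The spread among the 4 brain libraries was taken over the 1726 genes highest in brain with a mean of at least 10 CPM. The median ratio of highest to lowest library was 1.41, and it was at least 4 in 124 genes (7.18%). Of these the highest library was replicate 3 for 96 and replicate 2 for 24, and the lowest was replicate 4 for 120. The 10 most variable included Ddn, Kcnv1, Chrm1, Cpne7, Icam5, Drd1, Kcnj4 and Pdyn. Ddn, which encodes a postsynaptic protein, had 10.3, 441, 651 and 6.14 CPM, Chrm1, a muscarinic receptor gene of forebrain neurons, 3.07, 64.2, 96.6 and 1.39 CPM, and Icam5, an adhesion gene of forebrain neurons, 4.14, 94.0, 124 and 1.94 CPM. Pdyn, the dynorphin precursor, had 2.27, 25.9, 24.1 and 0.497 CPM and Kcnj4, a potassium channel gene, 2.75, 62.2, 63.8 and 1.12 CPM. All 10 were high in replicates 2 and 3 and low in 1 and 4. Replicate 4 is also the one brain library of run D804, so that run and piece cannot be told apart for it, while replicates 1 to 3 share a run.

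Genes highest in brain spanned more of the genome than others. Their median span was 18.8 kb against 13.7 kb for all tested genes, and among protein-coding genes 34.9 kb against 22.05 kb. Of the coding ones 30.0% span over 100 kb, against 13.5%. A share of 4.90% lies on the X chromosome, against 3.07%, and 21.3% are annotated as long noncoding RNA, against 16.6%. These shares are descriptions, and longer genes also collect more counts at a given number of transcripts.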

How the data were processed

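Poly(A) RNA of 12 healthy mouse tissues was read as a table of raw counts per gene, whole numbers that the authors deposited without normalization. The submitters' processing notes name FastQC, Trim Galore, STAR, HTSeq and the mm10 build, without a role, order or version. The labels give neither the gene annotation nor the strand handling of the counts, so antisense or overlapping genes and close copies may share reads. Of 53379 gene IDs, 53274 were matched to symbols of GENCODE vM21.

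The counts of the 48 tissue libraries (53591239 to 254103370 per library) were fitted with edgeR 4.0.16 in R 4.3.3, with filtering by tissue (26242 genes kept), TMM scaling, a term for each of 12 tissues and a term for run. Brain was set against the mean of the 11 tissue terms by the quasi-likelihood test, with Benjamini-Hochberg adjustment over all 26242 genes and a threshold of 0.05. Residual degrees of freedom were 35 and the common coefficient of biological variation was 0.302. A gene higher or lower than each tissue passed 11 one-sided tests, whose largest p was adjusted. CPM are counts per 1000000 gene counts of a library. SE is the log2 fold divided by the root of the F statistic. The script was tested on simulated data. Genes at 0 are given a floor of 3 counts over the 4 libraries of a tissue, which covers counting error only.

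The members, gene lists and tests were chosen with earlier results of these data known. Genes named in the text are the 12 highest folds among genes highest in brain with at least 10 CPM, the 8 highest per kilobase, the 10 lowest folds among genes lower than in each tissue, the 10 most variable in brain and up to 4 members of each list by level, with those called against their list; the others named were chosen after their values were seen. Library numbers were not taken to pair samples. Alternatives were DESeq2 1.42.0, other scalings and filters, no run term, run D812 alone, a 2-fold minimum, the 44 other libraries as 1 group, a block by set of consecutive library numbers and each library left out. Some genes of the lists are counted but not reported by name here. The 57 libraries of other experiments in the series were not used here.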

Additional observations from a re-analysis of the deposited data

Results flagged for a closer look

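Among the 4 brain libraries, 1 library lay far from the other 3 for 14 of 193 named genes and 2 of 42 summed gene lists, by a gap to the nearest of the others that passed the 95% limit of Dixon's test over the whole range. Chance alone gives such a gap in about 1 of 20 groups. Replicate 1 was the far library, and the high one, for 6 of the 16. They are the summed myelin list (11028, 6809, 6545 and 7206 CPM in replicates 1 to 4), its member Mobp (1649, 877, 947 and 840.4 CPM), Sparcl1, which astrocytes secrete (2529, 1919, 1869.9 and 1893 CPM), Tcf7l2, a factor of the thalamus (56.9, 8.01, 11.01 and 5.64 CPM), Slc6a3, the dopamine carrier (2.93, 0.137, 0.144 and 0.112 CPM), and Alb, the liver's albumin, at traces (0.298, 0.0211, 0.0522 and 0.0249 CPM).

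Replicate 3 was high for the summed immediate early genes (313.4, 320.97, 707 and 376 CPM), for Arc among them (35.6, 42.4, 156 and 32.7 CPM), for Snap25, although by a small margin (2351, 2366, 2448 and 2358 CPM), and for traces of Ces1f (0.0103, 0, 0.0783 and 0 CPM), and it was low for the glycine carrier Slc6a5 (42.1, 42.05, 19.4 and 38.3 CPM). Replicate 2 was high for the serotonin enzyme gene Tph2 (1.11, 2.88, 0.887 and 0.746 CPM) and for Oxt (0.482, 1.71, 0.391 and 0.236 CPM), and low for Rph3a (571, 485, 569.5 and 584 CPM). Replicate 4, the one brain library of run D804, was high for Gabrd (166, 159, 158 and 250.3 CPM) and for Srrm4 (97.8, 97.6, 103 and 131 CPM), and run and library cannot be told apart for it.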

How the results depend on the processing

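Of the 192 named genes tested, 149 kept their direction and their side of the threshold in all 59 alternatives. With a 2-fold minimum, 5934 genes were called higher in brain and 4947 lower, 1745 were higher and 729 lower than in each tissue, and 12194 against colon, 10782 against heart, 11395 against kidney, 12609 against LN, 11326 against lung, 10756 against ovary, 11307 against skin and 12406 against stomach were called. With the 44 other libraries as 1 group, which weighs tissues by their level, 4718 genes were called higher and 6227 lower, so that lower calls were the more frequent. In that fit 36 named genes were no longer called, and among them the log2 fold turned below 0 for Acan (-2.04), Amh (-2.18), Fa2h (-0.80), Gabrr2 (-0.11), Sftpc (-11.46), Slc12a1 (-2.22), Sparc (-0.0226) and Zp3 (-4.07), each called higher in the fit reported. With library totals alone, 972 genes were lower than in each tissue, and with no filter 5087 were highest in brain. DESeq2 called 9914 higher and 9794 lower. The median log2 fold of all tested genes was -0.17 as fitted, -0.06 with RLE factors, 0.03 with library totals and -0.23 with upper-quartile factors. It was -0.59 with the 44 libraries as 1 group.

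With 1 library left out, the calls ran from 9182 to 9806 higher, 8758 to 9231 lower, 3221 to 3356 highest in brain, 2674 to 2927 higher than each and 1740 to 1962 lower than each, and 18339 to 19251 against colon, 16984 to 17889 against heart, 17702 to 18650 against kidney, 18654 to 19495 against LN, 18590 to 19384 against liver, 17698 to 18622 against lung, 17312 to 18270 against ovary, 17663 to 18589 against skin, 19049 to 19948 against spleen, 18455 to 19423 against stomach and 19575 to 20491 against thymus. These fits tested 26833 to 26971 genes, against 26242 in the fit reported. For genes highest in brain, the tissue mean CPM were still those of all 48 libraries, so that only the fit left the library out. Library numbers, which differ for every library, fall into 4 sets of 12 consecutive numbers, each with 1 library of each tissue. These sets were not taken to pair the samples, since 4 of 44 pairs of brain and another tissue in the same set had a correlation of deviations over 0.1. Even so, 23 pairs correlated best within their own set, where an even split gives 11, a hint from the data of shared sets. With a block by these sets, 9494 genes were called higher and 9161 lower. The cause of these shifts was not tested, and levels near the floor of 0.00858 CPM in brain are limited by depth.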
